A study of Mus musculus with 2 samples.

Results

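Myosin heavy chain genes were described in RNA from the skeletal muscle of newborn mice. The 10 genes Myh8, Myh3, Myh4, Myh1, Myh2, Myh13, Myh7, Myh11, Myh9 and Myh10 were chosen by name as a family, with earlier results of these data known. They are 10 of 43346 genes with a row in each library, and their 42 transcripts are 42 of 103639. Shares were taken over all 14 heavy chain genes with a row, which adds Myh6, Myh7b, Myh14 and Myh15. The animals were B6NCrl mice, a C57BL/6N line, at postnatal day 0, and the labels name neither a genotype change, nor a treatment, nor the muscle taken, and sex was not collected. Each of 2 libraries, biological replicates 2 and 1 of the same group, came from a tissue portion of 1 pup, and the labels give the tissues different records under a shared donor. Each started from 13 pg of total RNA above a size of 200, which the labels equate with 1 cell although the RNA came from tissue. The SmartSeq protocol was used, in which cDNA is copied over its full length and amplified, with spike-in RNAs. The design holds no comparison between conditions, so genes and transcripts were compared within each library and replicate 2 was set over replicate 1.

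Myosin heavy chains are the motor proteins that pull on actin filaments using ATP. A sarcomeric chain has a head that binds actin and ATP and a long tail that packs with other tails into the thick filament of the sarcomere. Rodent limb muscle passes through a succession of such chains, with embryonic Myh3 and perinatal Myh8 before and around birth and the adult fast chains Myh2 (type IIa), Myh1 (type IIx) and Myh4 (type IIb) afterwards. Slow fibres use Myh7, which is also the cardiac beta chain, and Myh13 is known from extraocular muscle. Myh11 is the chain of smooth muscle, and Myh9 and Myh10 are the nonmuscle chains IIA and IIB, which build contractile bundles in most other cells.

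Replicate 2 held 38977618 expected counts, which are estimated reads that need not be whole, and replicate 1 held 32103374. Levels are in TPM, which divides reads by transcript length and scales each library to the same sum, and of which spike-ins took 4.54% in replicate 2 and 9.44% in replicate 1. The 14 heavy chain genes took 884117 counts in replicate 2 and 574237 in replicate 1, or 0.474% and 0.391% of TPM. All 6 skeletal muscle markers were detected in both libraries, here meaning at least 1 TPM and 5 counts, with summed levels of 100473 TPM in replicate 2 and 92260 TPM in replicate 1. Errors are SDs over n = 2, and since the donor entry is shared, both libraries may come from the same animal. The spread between the libraries can hold differences of animals, tissue portions, amplification and sampling of few molecules, which cannot be told apart, and reads after amplification are not independent molecules. In tissue RNA, fewer cells of a type and less RNA per cell cannot be told apart either. An exact two-sided permutation test of 2 within-library ratios, which flips their signs, cannot give a p below 0.5. A ratio is therefore only described, and said to exceed the spread where both libraries gave the same sign and the mean was over 2 SD.

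The sarcomeric chains are alike enough to share reads in places, so the coding sequences are shown first. Of 4943 ungapped windows of 60 aligned coding bases in the main transcripts, the window below had the fewest bases equal to Myh8 over the other 6 sarcomeric members. It lies in the tail, in exon 36 of Myh8-201 at chr11:67305652-67305711 on the plus strand of GRCm38. Capitals mark bases that differ from Myh8.
Myh8: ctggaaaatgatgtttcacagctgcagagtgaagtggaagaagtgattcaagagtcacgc
Myh3: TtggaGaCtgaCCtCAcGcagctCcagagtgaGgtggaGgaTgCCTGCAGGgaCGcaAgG
Myh1: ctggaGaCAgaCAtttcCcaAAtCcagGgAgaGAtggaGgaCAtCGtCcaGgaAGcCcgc
Myh2: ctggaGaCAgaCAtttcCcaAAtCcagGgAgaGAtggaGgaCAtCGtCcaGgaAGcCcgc
Myh4: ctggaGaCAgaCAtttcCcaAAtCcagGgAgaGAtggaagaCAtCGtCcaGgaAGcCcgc
Myh13: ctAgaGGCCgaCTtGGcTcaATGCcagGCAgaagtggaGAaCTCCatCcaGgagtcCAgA
Myh7: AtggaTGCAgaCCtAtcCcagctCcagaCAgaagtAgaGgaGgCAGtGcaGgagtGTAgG
Here 28 bases of Myh13 differed from Myh8, 24 of Myh3, 24 of Myh7, 23 of Myh1, 23 of Myh2 and 22 of Myh4. Myh1 and Myh2 had the same 60 bases, so this stretch alone separates both from Myh8 but not from each other.

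The window most alike lies in the head, in exon 15 of Myh8-201 at chr11:67288214-67288273 on the plus strand. It is shown because its 60 bases are the same in 4 of the genes.
Myh8: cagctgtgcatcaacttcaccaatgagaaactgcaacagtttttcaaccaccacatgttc
Myh3: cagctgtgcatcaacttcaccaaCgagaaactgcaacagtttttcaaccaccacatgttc
Myh1: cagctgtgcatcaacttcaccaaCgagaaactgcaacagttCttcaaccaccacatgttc
Myh7: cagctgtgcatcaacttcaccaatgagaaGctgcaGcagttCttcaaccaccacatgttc
Myh2, Myh4 and Myh13 had 0 differences from Myh8 in this window, so these 60 bases alone do not separate these genes. A longer read also covers bases beside the window, which may differ. Myh3 had 1 difference, Myh1 had 2 and Myh7 had 3.

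Over the whole coding sequence, Myh8 shared 87.9 to 89.1% of aligned bases with the adult fast chains Myh1, Myh2 and Myh4, but 80.7% with Myh3, the other developmental chain. The adult fast chains shared 88.2 to 91.0% among themselves. Myh7 shared 75.8 to 77.5% with the other sarcomeric members. Smooth muscle Myh11 and the nonmuscle chains Myh9 and Myh10 shared 72.3 to 74.9% with each other and 51.6 to 55.8% with the sarcomeric members. The main coding sequences ran from 1935 codons in Myh7 to 1976 in Myh10, stop codon included.

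**Figure D1:**
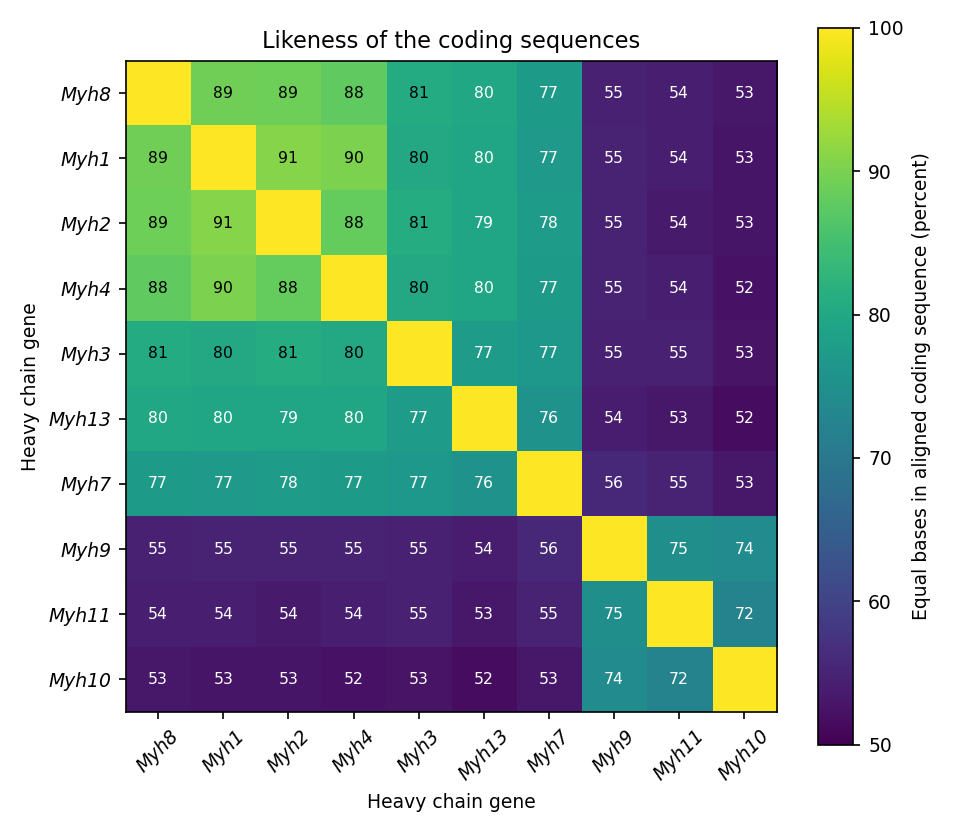
Percent of equal bases in the aligned coding sequences of the main transcript of each member, as colour and rounded number, with both axes listing the same 10 genes. Myh8 and the 3 adult fast chains form the block of highest values, and the smooth muscle and nonmuscle chains form a block of their own.

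Reads were taken as 100 bases long. Whole windows of 100 bases found letter for letter in another heavy chain gene show where such reads could be split. They made up 6.61% of the windows of Myh8-201, 1.15% of Myh3-202, 9.84% of Myh1-202, 9.28% of Myh2-201, 3.85% of Myh4-201 and 3.60% of Myh13-201. Myh1 shared 454 such windows with Myh2, and Myh8 shared 204 with Myh2, 159 with Myh1, 122 with Myh13 and 87 with Myh4. Myh8 and Myh3 shared 0. The 11.4% of Myh7-201 were shared with the cardiac alpha chain Myh6 and with 0 windows of any other member. Myh9 and Myh10 shared 23 windows with each other, 0.314% and 0.299% of theirs, and Myh11 shared 0 with any heavy chain gene. Low values of Myh2 and Myh13 beside the high Myh8 are for this reason less certain than those of Myh9, Myh10 and Myh11.

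Developmental chains made up nearly all heavy chain RNA of newborn muscle. Myh8 and Myh3 together took 95.9% of summed heavy chain TPM in replicate 2 and 95.0% in replicate 1 (95.4 ± 0.612%, SD, n = 2). Slow and cardiac chains took 1.21% and 3.62%, adult fast chains 1.56% and 1.05%, and nonmuscle chains 1.00% and 0.305% in replicates 2 and 1. By counts the nonmuscle share differed less between the libraries, at 0.705% in replicate 2 and 0.366% in replicate 1. The extraocular chain took 0.189% in replicate 2 and 0.00332% in replicate 1, and the smooth muscle chain took 0.155% in replicate 2 and 0% in replicate 1.

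**Figure D2:**
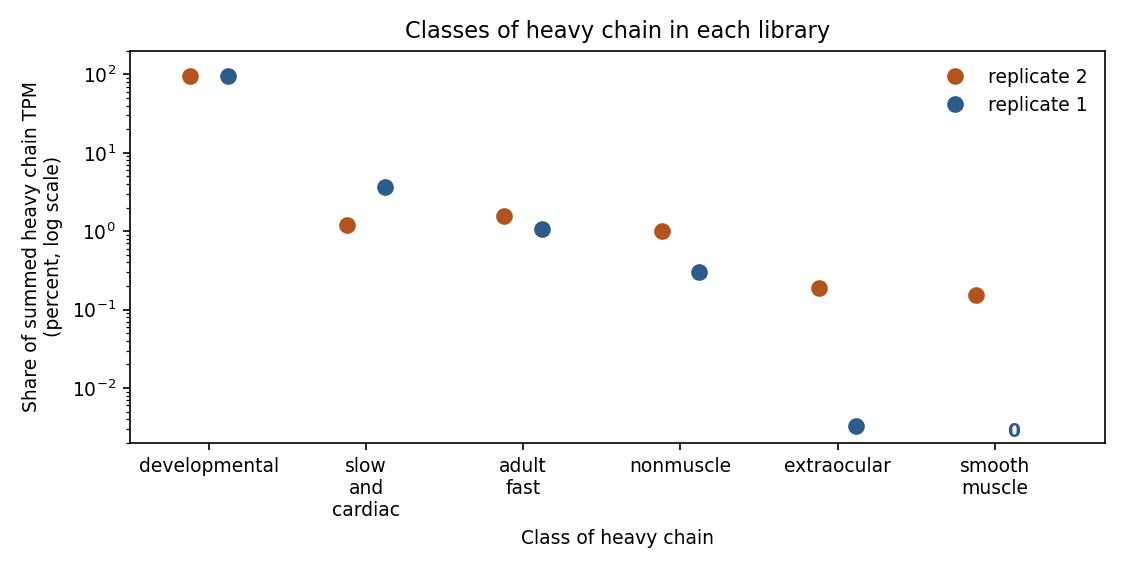
Share of each class in the summed TPM of the 14 heavy chain genes (percent, log axis), with 1 point for each library, replicate 2 left of replicate 1, and a printed 0 where no count was seen. The developmental class lies near 95% in both libraries, while the slow and cardiac class lies below the adult fast class in replicate 2 and above it in replicate 1.

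Myh8, the perinatal chain (ENSMUSG00000055775.12, chr11:67277124-67308634, plus strand), had 4187 TPM in replicate 2 and 3239 TPM in replicate 1, from 783923 and 477380 counts. It was the 27th highest gene in replicate 2 and the 31st in replicate 1. Its share of heavy chain TPM was 88.3% in replicate 2 and 82.8% in replicate 1 (85.6 ± 3.88%).

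Myh3, the embryonic chain (ENSMUSG00000020908.10, chr11:67078300-67102291, plus strand), had 358 TPM in replicate 2 and 476 TPM in replicate 1, from 66340 and 68835 counts. Both libraries thus held Myh3 well below Myh8 and above every other heavy chain. Myh8 was 11.7 times Myh3 in replicate 2 and 6.80 times in replicate 1. The log2 ratio of Myh3 over Myh8, on the log2(TPM + 1) scale used for all such ratios, was -3.15 ± 0.55 and exceeded the spread.

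Myh7, the slow and cardiac beta chain (ENSMUSG00000053093.11, chr14:54970684-54994626, minus strand), had 57.2 TPM in replicate 2 and 141.55 TPM in replicate 1, from 10800 and 20676 counts. It was the third chain in both libraries, at 1.21% and 3.62% of heavy chain TPM. Myh7 over Myh8 was -5.34 ± 1.18 on the log2 scale and exceeded the spread. The RNA of the cardiac alpha chain Myh6 was 0.10 TPM in replicate 2 and 0.18 TPM in replicate 1, on 5 and 9 counts. Of 6 heart markers, Nppa, Nppb, Tnni3 and Ryr2 had 0 counts in both libraries, Myl7 had 1 count in replicate 2 and 0 in replicate 1, and only Sln, which muscle of newborn mice also expresses, was detected, at 6369 TPM and 4254 TPM. Myh7b, another chain of slow and cardiac muscle, had 0 counts in both libraries.

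Adult fast chains were present but low. Myh4, the type IIb chain (ENSMUSG00000057003.8, chr11:67238029-67260446, plus strand), had 41.9 TPM in replicate 2 and 20.65 TPM in replicate 1, from 7745 and 2981 counts. Myh1, the type IIx chain (ENSMUSG00000056328.10, chr11:67200052-67224575, plus strand), had 31.75 TPM and 20.2 TPM, from 5869 and 2208 counts. Myh2, the type IIa chain (ENSMUSG00000033196.13, chr11:67171027-67197517, plus strand), had 0.35 TPM and 0.21 TPM, from 64 and 30 counts, and was detected in neither library.

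Each adult fast chain lay below Myh8 by more than the spread. The log2 ratios over Myh8 were -6.92 ± 0.44 for Myh4, -7.13 ± 0.18 for Myh1 and -11.49 ± 0.15 for Myh2. Myh2 was below Myh1 by more than the spread as well, at -4.37 ± 0.33. Because Myh2 lay under the pseudocount of 1 TPM, both Myh2 ratios depend on it. With 0.1 TPM they were -13.27 over Myh8 and -6.09 over Myh1, with 10 TPM they were -8.49 and -1.79, and each still exceeded the spread. Without a pseudocount, Myh8 was 11964 times Myh2 in replicate 2 and 15424 times in replicate 1. The order of Myh4 and Myh1 was not settled, with a log2 ratio of 0.39 in replicate 2 and 0.03 in replicate 1 (0.21 ± 0.26).

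The adult fast and the slow chains changed places between the libraries. Myh4 over Myh7 was -0.44 in replicate 2 and -2.72 in replicate 1, and Myh1 over Myh7 was -0.83 and -2.75, so Myh7 was higher than each in both libraries, but neither mean was over 2 SD. The class sums gave slow and cardiac over adult fast at -0.36 in replicate 2 and 1.76 in replicate 1 (0.70 ± 1.50), which differ in sign. Against the developmental class, adult fast chains were at -6.19 ± 0.38 and slow and cardiac chains at -5.49 ± 1.12, and both exceeded the spread.

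Myh13, the extraocular chain (ENSMUSG00000060180.8, chr11:67321658-67371586, plus strand), had 8.97 TPM from 1631 counts in replicate 2 and 0.13 TPM from 19 counts in replicate 1. It was thus detected in replicate 2 and not in replicate 1. Myh13 over Myh8 was -10.10 ± 1.96 and exceeded the spread in spite of this difference. With pseudocounts of 0.1 and 10 TPM it was -11.32 and -8.06.

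The smooth muscle chain was seen in 1 library. Myh11 (ENSMUSG00000018830.8, chr16:14194535-14291372, minus strand) had 7.37 TPM from 1504 counts in replicate 2 and 0 counts in replicate 1. A count of 0 allows up to 3 counts, or 0.0188 TPM in replicate 1, so Myh11 was at least 392-fold higher in replicate 2, for counting error only. Of 8 smooth muscle and mural cell markers, 4 were detected in both libraries, and their summed level was 784 TPM in replicate 2 and 459 TPM in replicate 1. Tagln had 1084 counts in replicate 2 and 1 in replicate 1, and Cnn1 had 1487 and 0, while Lmod1 had 0 in both. Smtn, a smooth muscle cytoskeletal protein, had 132 TPM in replicate 2 and 56.6 TPM in replicate 1, and Kcnj8, a potassium channel of mural cells, had 88.2 TPM and 19.0 TPM. The mural cell markers Pdgfrb and Rgs5 were lower in replicate 2, with 105 counts of Pdgfrb in replicate 2 and 1491 in replicate 1, and with 31.6 TPM and 53.0 TPM of Rgs5. Acta2, the smooth muscle actin, which immature skeletal muscle also expresses, had 487 TPM and 319 TPM. The part of these cells in the Myh11 difference was not tested.

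Of the nonmuscle chains, Myh9 was detected in both libraries and Myh10 in 1. Myh9, the chain of nonmuscle myosin IIA (ENSMUSG00000022443.12, chr15:77760587-77842175, minus strand), had 33.4 TPM in replicate 2 and 11.7 TPM in replicate 1, from 4275 and 2088 counts. Myh10, the chain of nonmuscle myosin IIB (ENSMUSG00000020900.11, chr11:68691559-68816632, plus strand), had 14.15 TPM from 1961 counts in replicate 2 and 0.25 TPM from 12 counts in replicate 1. Myh14, the chain of nonmuscle myosin IIC, had 0 counts in both, as had Myh15.

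Myh10 was below Myh9 in both libraries, at -1.18 in replicate 2 and -3.34 in replicate 1 on the log2 scale, but the mean of -2.26 ± 1.53 did not exceed the spread. It was -3.15 with a pseudocount of 0.1 TPM and -0.96 with 10 TPM, where it did exceed the spread. Ratios of Myh11 rest on the pseudocount, since replicate 1 had 0 counts. Myh11 over Myh9 was -2.85 ± 1.15 and exceeded the spread, but at -4.52 with 0.1 TPM it did not. Myh11 over Myh10 was -0.59 ± 0.38 and did not exceed it, but did at -1.37 with 0.1 TPM and at -0.93 from posterior means. Myh9 over Myh3 was -4.31 ± 1.31 and the nonmuscle over the developmental class was -7.36 ± 1.14, both beyond the spread. Smooth muscle over nonmuscle chains was at -3.11 ± 0.82, also beyond it, but at -4.79 with 0.1 TPM it was not. In all, 9 of 14 gene pairs and 4 of 5 class pairs exceeded the spread. These calls are not independent, since many pairs share Myh8 or the developmental class, the highest gene and class. All pairs over Myh8 or over the developmental class exceeded it.

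Markers of cells that carry nonmuscle chains differed between the libraries too. All 6 fibroblast markers were detected in both libraries, with a summed level of 4784 TPM in replicate 2 and 7267 TPM in replicate 1. Of 5 endothelial markers, 4 were detected in both, with sums of 253 TPM and 494 TPM. Pecam1 had 4 counts in replicate 2 and 12711 in replicate 1, while Tie1 had 21.6 TPM and 5.03 TPM, and Esam 88.8 TPM and 74.5 TPM. Of 5 macrophage markers, 4 were detected in both, with sums of 270.5 TPM and 633 TPM. All 3 sums were lower in replicate 2, where Myh9 and Myh10 were higher, but their members did not move together. Among fibroblast markers Col1a1 had 784 TPM in replicate 2 and 1829 TPM in replicate 1, while Dcn had 680 TPM and 660 TPM. Among macrophage markers C1qb had 44.3 TPM and 280 TPM, while Mrc1 had 43.3 TPM and 7.23 TPM. The part of these cells in the result was not tested.

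**Figure D3:**
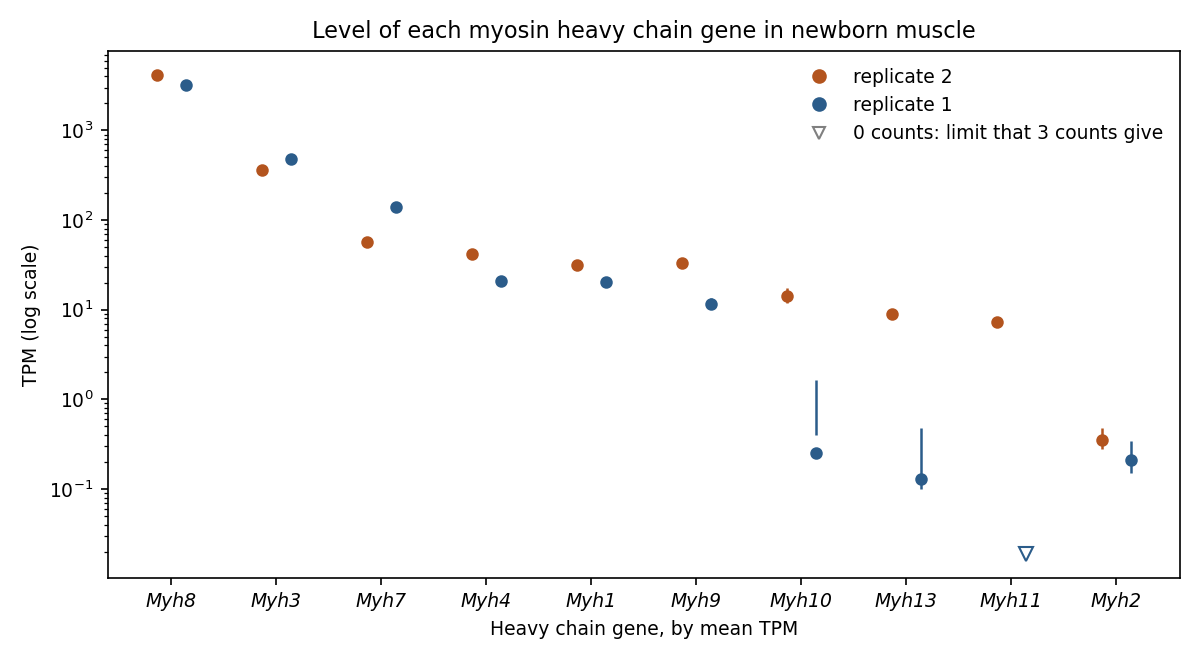
TPM of each heavy chain gene (log axis) in replicate 2 and replicate 1, ordered by mean, with vertical lines for the credibility intervals the authors deposited and an open triangle for the limit that 3 counts give where 0 were seen. Intervals belong to the posterior mean and can miss the plotted TPM, as for Myh10 in replicate 1. Points of the 5 highest genes lie close together on this scale, and those of Myh10, Myh13 and Myh11 lie far apart.

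Between the libraries the members differed about as often as other genes. Of 9 members with at least 10 counts in both libraries, 5 differed by more than 2-fold in TPM, against 2459 of 4872 genes or 50.5%. Of these, 4 were more than 2-fold higher in replicate 2, namely Myh13, Myh10, Myh9 and Myh4, against a background of 24.9%. Their ratios of replicate 2 over replicate 1 were 69.0, 56.6, 2.86 and 2.03, where those of Myh13 and Myh10 rest on 19 and 12 counts in replicate 1. Myh7 was 2.47-fold higher in replicate 1, but on the scale of the spike-ins its log2 ratio was -0.25, within 2-fold. Myh8, Myh1 and Myh2 were 1.29, 1.57 and 1.67 times as high in replicate 2 as in replicate 1, within 2-fold. On the scale of the spike-ins all 3 passed 2-fold, at log2 ratios of 1.43, 1.70 and 1.79, and scaled on counts Myh1 did so too, at 1.05 to 1.13. The spike-in scale moved the median of all genes to 1.00. Myh3 was at 0.752 of its level in replicate 1, but on the scale of the spike-ins it was higher in replicate 2, by a log2 of 0.64. The median log2 ratio of replicate 2 over replicate 1 was 0.74 over the 9 members and -0.05 over the 4872 genes. These ratios compare 1 library with 1 and have no replicate check.

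Detection was counted as well. Of the 9 members detected in at least 1 library, 6 were detected in both, where 48.7% of all 8943 such genes were. Myh10, Myh11 and Myh13 were detected in replicate 2 alone, 3 of the 9 members, as were 29.0% of such genes. The ratios of Myh9, Myh10 and Myh1 depended on length. The length of the Myh9 row, an average over its transcripts, was 4196 bases in replicate 2 and 7433 in replicate 1. Counts over the library total gave Myh9 a log2 of 0.75, below 2-fold. The Myh10 row had 4536 bases in replicate 2 and 2091 in replicate 1, and its log2 was 7.07 from such counts and 5.82 from TPM. For Myh1 the lengths were 6016 and 4569 bases, and the log2 was 1.13 from such counts and 0.65 from TPM.

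Transcripts were next compared as shares of the summed TPM of their gene. The annotation lists 42 transcripts of the 10 genes, of which 26 are annotated as protein coding, and 23 had at least 5 counts in replicate 2 and 17 in replicate 1. Coding transcripts took 99.2% of the counts in replicate 2 and 99.9% in replicate 1. The transcript with the highest share was the same in both libraries for 8 genes, the exceptions being Myh10 and Myh11. Posterior means gave 7 such genes, without Myh13. Among the 8, Myh2 and Myh13 rest on 30 and 19 counts in replicate 1. How often other genes keep their leading transcript was not computed, so the number only describes these members.

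The developmental chains were dominated by 1 transcript each. Myh8-201 held 98.1% of Myh8 in replicate 2 and 99.7% in replicate 1 (98.9 ± 1.14%). Myh8-203, a transcript that retains an intron and is annotated as noncoding, had 6298 counts in replicate 2 and 57 in replicate 1, or 1.50% and 0.0225% of Myh8. Retained-intron transcripts of all members took 0.775% of the counts of their transcripts in replicate 2, where Myh8-203 was the main one, and 0.0635% in replicate 1, where Myh8-204 was. Myh8-204 had 115 counts in replicate 2 and 307 in replicate 1, so the retained-intron transcripts of Myh8 did not move together.

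Myh3 was spread over 3 transcripts. Myh3-202 held 82.8% in replicate 2 and 75.6% in replicate 1 (79.2 ± 5.06%), Myh3-201 held 14.4% and 17.5%, and Myh3-203 held 2.85% and 6.92%. All 3 code for the same protein, since their coding sequences are identical. Only 1.26% of the 100-base windows of Myh3-202 occur in no other Myh3 transcript, so the split rests on few positions.

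Among the remaining sarcomeric chains, Myh7-201 held 100% of Myh7 in replicate 2 and 99.0% in replicate 1, and Myh4-201 held 97.7% and 100% of Myh4. Myh2-201 held 100% of Myh2 in both libraries, but 77.9% in replicate 2 and 48.5% in replicate 1 from posterior means, and 0 of its 100-base windows are found in it alone. Myh1-202 held 94.2% in replicate 2 and 73.2% in replicate 1, though 0 of its 100-base windows are found in it alone. The rest in replicate 1 was Myh1-204, a coding fragment of 631 bases that had 70 counts there and 0 in replicate 2. It was 26.8% of Myh1 by TPM but 3.19% by counts, because TPM divides by length. Myh13-201 held 59.6% in replicate 2 on 956 counts and 100% in replicate 1 on 19, and Myh13-202, with the same coding sequence, held the other 40.4% in replicate 2. From posterior means Myh13-201 held 40.4% in replicate 2 and 21.6% in replicate 1, where Myh13-204 led with 41.8%, and 0 windows are found in Myh13-201 alone.

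**Figure D4:**
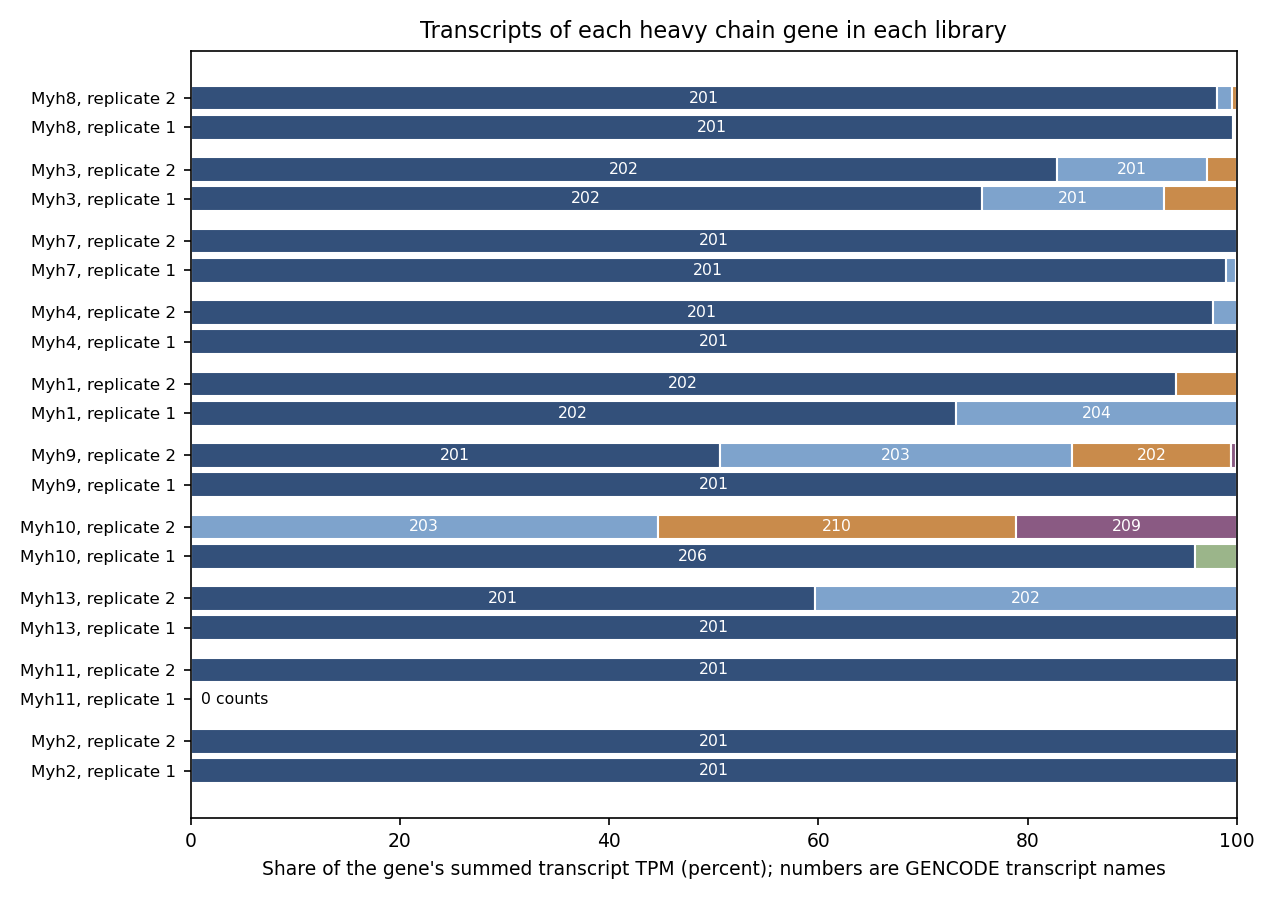
Share of each transcript in the summed TPM of its gene (percent), with replicate 2 above replicate 1 for each gene, colours marking transcripts within a gene and numbers giving the end of the transcript name. Myh8, Myh7, Myh4, Myh11 and Myh2 are nearly all 1 transcript where they were seen, and Myh9 and Myh10 are divided in replicate 2.

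In replicate 2 the nonmuscle chains were divided over several transcripts by TPM. Myh9-201, the full coding transcript, held 50.6% of Myh9 in replicate 2 and 100% in replicate 1. In replicate 2 the noncoding Myh9-203 of 720 bases held 33.7% on 218 counts, and Myh9-202, annotated for nonsense-mediated decay, held 15.2% on 174 counts. By counts Myh9-201 held 90.5% of Myh9 in replicate 2. Myh11 has 1 transcript in the deposited tables, Myh11-201, with all 1504 counts of replicate 2.

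Myh10 had a different leading transcript in each library. In replicate 2 the coding Myh10-203 held 44.7% on 1520 counts, the intron-retaining Myh10-210 held 34.3% on 425 counts, and the noncoding Myh10-209 of 278 bases held 21.1% on 17 counts. In replicate 1 the noncoding Myh10-206 had 10 of 12 counts. Myh10-201 differs from Myh10-203 by 2 further coding exons, known in mammals as inserts of neuronal forms of this chain, in a loop near the ATP site and in a loop that binds actin. Both are shown in capitals between 15 bases of the neighbouring exons, because they separate the forms.
Myh10-201, exon 6, chr11:68745935-68745964: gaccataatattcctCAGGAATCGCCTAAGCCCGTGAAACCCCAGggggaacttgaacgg
Myh10-201, exon 17, chr11:68775365-68775427: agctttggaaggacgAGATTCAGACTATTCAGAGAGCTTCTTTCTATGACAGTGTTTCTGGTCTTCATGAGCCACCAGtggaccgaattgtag
The exons add 10 and 21 codons, on the plus strand of GRCm38. Myh10-201 had 0 counts in replicate 2 and 2 in replicate 1, and Myh10-202, another coding transcript, had 0 in both after rounding. By expected counts, the coding Myh10 RNA of replicate 2 was thus assigned to Myh10-203, the form without these inserts. From posterior means, Myh10-203 held 30.8% of Myh10 in replicate 2, Myh10-202 held 11.33% and Myh10-201 held 0.5%. Whether Myh10-202 carries either insert was not tested. Only 2.22% of the windows of Myh10-203 occur in no other Myh10 transcript, so this split rests on few positions. Of 5 neuron and Schwann cell markers, only Erbb3 was detected in both libraries.

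Most sarcomeric members lie side by side. Myh3, Myh2, Myh1, Myh4, Myh8 and Myh13 follow each other in this order on the plus strand of chromosome 11, over 293 kb (chr11:67078300-67371586). Levels did not follow the order. Myh8, the highest, lies between Myh4 and Myh13, and Myh3 and Myh1 lie on either side of the low Myh2. Myh7 lies on chromosome 14, Myh9 on 15 and Myh11 on 16, and Myh10 lies on chromosome 11 outside the cluster.

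**Figure D5:**
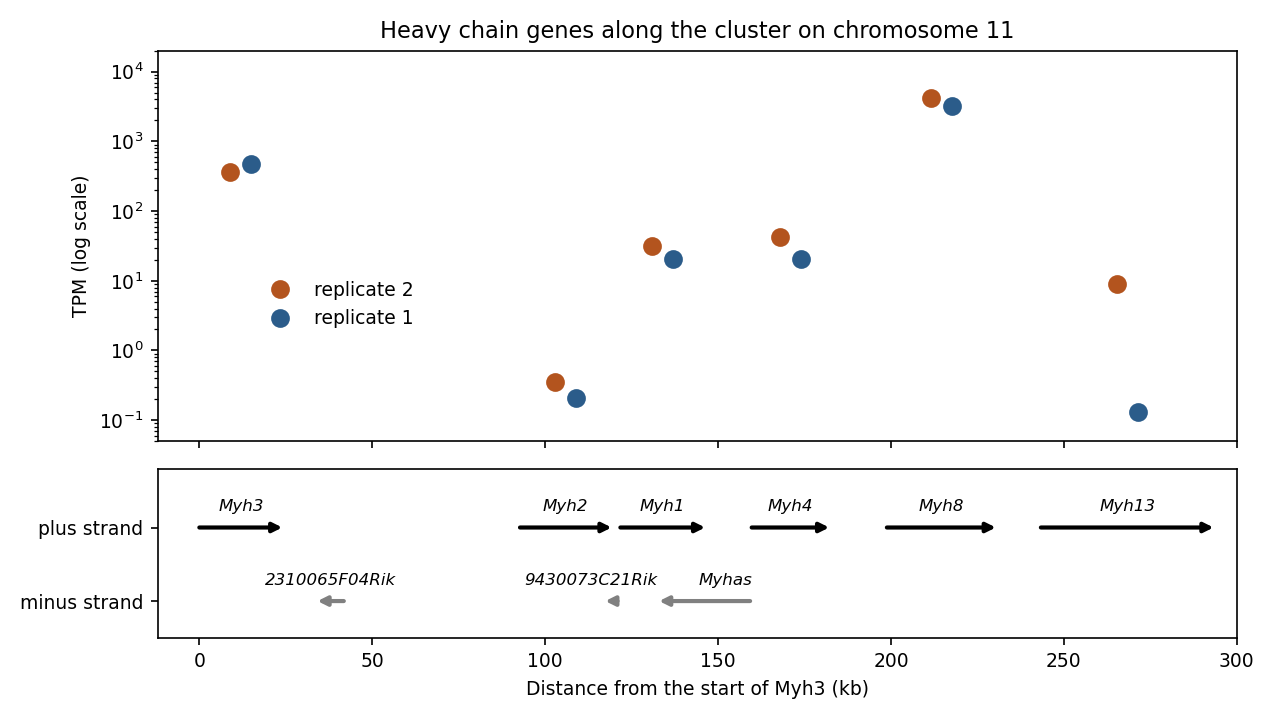
Upper panel, TPM of the 6 clustered members (log axis) in replicate 2 and replicate 1 at the middle of each gene; lower panel, genes as arrows along the distance from the start of Myh3 in kb. Myh3 and Myh8 stand above the 4 other genes in both libraries, and Myh2 lies below Myh1 and Myh4.

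Antisense genes overlap or flank 3 of the clustered members. 9430073C21Rik overlaps the end of Myh2. Myhas, on the minus strand across the end of Myh1 and the gap before Myh4, had 3.75 TPM from 84 counts in replicate 2 and 4.07 TPM from 74 counts in replicate 1. It was the only antisense or noncoding gene of the cluster with counts, and 9430073C21Rik, 2310065F04Rik and Mhrt, the antisense gene beside Myh7, had 0 in both libraries. Windows of 100 bases whose complement lies in another gene made up 5.39% of Myh1-202, 2.38% of Myh2-201 and 4.17% of Myh7-201. Whether strand was used in counting is not given in the sources used here, so reads of Myh1 and Myhas may not be told apart there.

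Most of the listed partners of the heavy chains, chosen with earlier results known, were detected in both libraries. Of all genes detected in at least 1 library, 48.7% were detected in both. Of 10 light chains, which brace the neck of the motor, 9 were detected in both libraries and Myl6b had 0 counts. Fast Myl1 had 27446 TPM in replicate 2 and 22507 TPM in replicate 1, and fast regulatory Mylpf had 15814 TPM and 7224 TPM. Myl4, the light chain of embryonic muscle and atrium, had 733 TPM and 671 TPM. Myl3, the light chain of slow fibres and ventricle, had 200 TPM in replicate 2 and 446 TPM in replicate 1, with the higher value in the same library as Myh7. Myl2, its regulatory counterpart, had 338 TPM and 223 TPM, with the higher value in the other library. The nonmuscle and smooth light chains Myl6, Myl9, Myl12a and Myl12b were between 232 and 1030 TPM in replicate 2 and between 159 and 741 TPM in replicate 1.

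Of 8 thick filament proteins, 6 were detected in both libraries. Mybpc1, the slow myosin-binding protein C, had 1920 TPM in replicate 2 and 1838 TPM in replicate 1, and Mybpc2, the fast form, had 252 TPM and 122 TPM. Mybpc3, the cardiac form, had 0 counts in both. Ttn, the giant spring of the sarcomere, had 959 TPM and 715 TPM. Myom3, an M-band protein, had 0.94 TPM in replicate 2, under the limit of detection, and 10.8 TPM in replicate 1.

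Of 4 genes of heavy chain folding, 3 were detected in both libraries. Unc45b, the chaperone of striated muscle myosin, had 51.8 TPM in replicate 2 and 47.3 TPM in replicate 1. Unc45a, its counterpart in other cells, had 11.9 TPM from 1144 counts in replicate 2 and 0 counts in replicate 1. Smyd1, a methyltransferase needed for thick filament assembly in zebrafish, had 27.1 TPM and 78.5 TPM, and the chaperone Hsp90aa1 had 98.3 TPM and 117 TPM. Of 4 light chain kinase and phosphatase genes, 2 were detected in both libraries. Mylk, the kinase of smooth muscle and nonmuscle light chains, had 0 counts in replicate 2 and 2450 in replicate 1, where Myh11 had 0. Mylk2, the kinase of skeletal muscle, had 2.51 TPM and 29.8 TPM. Ppp1r12a and Ppp1r12b, which carry the phosphatase to myosin, had 0.59 TPM and 41.3 TPM in replicate 2, and 32.3 TPM and 95.8 TPM in replicate 1.

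The genes nearest to a member over both libraries were found by Euclidean distance in log2(TPM + 1) among 4872 genes. Nearest to Myh8 were Pgam2, the muscle phosphoglycerate mutase, Atp2a1, the calcium pump of fast fibres, and Itm2a, a membrane protein, at distances of 0.20, 0.22 and 0.25. Nearest to Myh9 were Psmb10, B4galt7 and Insig1, at 0.02, 0.03 and 0.08. With 2 libraries, such a distance says only that these genes had like levels in each.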

How the data were processed

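RNA of newborn skeletal muscle was sequenced in 2 libraries of 1 group, for which the authors deposited a gene table and a transcript table each. Expected counts, which are estimated reads, are unnormalized as deposited, and the column names, per the file headers, match RSEM output. The deposited TPM values are scaled by the authors per length to a fixed sum over all rows, spike-ins included, and the deposited FPKM values are per length and library total. The percent columns deposited by the authors give the share of a transcript in its gene, and the deposited interval bounds are on the signal scale of TPM, with the credibility level not given in the sources used here. Per the labels, the assembly was mm10, and per the descriptions deposited with the files the annotation was GENCODE M4. Neither the aligner nor the use of strand is given in the sources used here.

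Members were matched by gene identifier, and names, positions and transcript sequences were taken from GENCODE M21 (GRCm38, which is mm10). All 42 transcripts matched, 40 with equal length. Proteins were not used, so identity was measured on coding sequences aligned with MAFFT 7.526 in place of the planned protein alignment. Levels were summarised as mean ± SD, ratios were taken as log2(TPM + 1), and shares were taken over the 14 heavy chain genes. Every listed member, its listed partners and the 3 genes nearest to Myh8 and to Myh9 are named. Ratios between libraries were limited to genes with 10 or more counts in each. edgeR 4.0.16 and DESeq2 1.42.0 in R 4.3.3 gave only scaling factors, on rounded counts. Other steps used Python 3.11.15, numpy 2.4.6, pandas 2.3.3 and matplotlib 3.10.9. The members and lists were chosen with earlier results of these data known.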

Additional observations from a re-analysis of the deposited data

How the results depend on the processing

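No paired analysis was possible because the 2 libraries form 1 group. Of 299 alternative values, 278 were counted as unchanged. For shares this meant within the SD of the main mean, and for numbers or percentages of genes or pairs within a fixed band. For ratios it meant the same direction and side of the limit used. Of the 278, 71 left out 1 library. There, shares and ratios of like sign lie within the SD of their 2 values by construction, so they show nothing about robustness. Among the other values 207 were unchanged, and 0 turned round a ratio past its limit. Part of the 207 could hardly have differed, so their number does not measure robustness. Within a library FPKM is proportional to TPM, and transcript TPM sum to gene TPM, so shares stay nearly the same. A changed minimum count leaves the ratio of a kept gene as it was. The band was wide enough that 7 members past 2-fold on the spike-in scale, against 5, counted as unchanged. With a pseudocount of 0.1 TPM, smooth muscle over nonmuscle chains was -4.79 and no longer exceeded the spread, since Myh11 had 0 counts in replicate 1. Slow and cardiac over adult fast chains was -0.36 without replicate 1 and 1.76 without replicate 2. With at least 100 counts in both libraries, 3 of 6 members differed by more than 2-fold, against 46.0% of 4025 genes. Myh10, Myh13 and Myh2 had fewer counts and dropped out. Of these, Myh10 and Myh13 had differed by more than 2-fold and Myh2 by less. Scaling on the spike-in sum took Myh7 within 2-fold and Myh8, Myh1 and Myh2 past it, and put Myh3 higher in replicate 2. Scaling on counts, by TMM, DESeq2 size factors or library totals, gave Myh9 0.67 to 0.75, under 2-fold, and Myh1 1.05 to 1.13, over 2-fold. The library total was added after the data were seen. Isoform percentages from posterior means gave Myh13-201 31.0%, Myh2-201 63.2% and Myh4-201 92.7%, as means of both libraries. At this depth, values of Myh2 in both libraries and of Myh10 and Myh13 in replicate 1 rest on 12 to 64 counts.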
